A study of Mus musculus with 4 samples.

Results

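The endothelial genes described here are Pecam1, Cdh5, Kdr, Flt1, Tek, Emcn, Vwf, Plvap, Lyve1 and Prox1, which mark the cells that line blood and lymph vessels. They were chosen by name, and each was read by the probe that the RefSeq accession of the array design ties to it, the brightest one where a gene has several. All 10 were on the array, among 22911 genes that could be named, and each had exactly 1 probe. RNA was measured with 1-colour Agilent arrays in mouse PDL, the abbreviation of periodontal ligament, the tissue that holds a tooth root in its socket. There were 4 groups with 1 array each: Mkx-KO and WT mice of 10 weeks of age, and Mkx-KO and WT mice of 4 weeks of age. Mkx encodes Mohawk, a homeobox transcription factor of tendons and ligaments, and the labels do not give the deleted part of the gene, the strain, the sex or how many mice went into a preparation.

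The periodontal ligament is rich in vessels, which run between the collagen fibre bundles and connect with the marrow spaces of the surrounding bone. Endothelial cells hold together through adhesion molecules such as PECAM1 and VE-cadherin, respond to VEGF through the receptors KDR and FLT1, and respond to angiopoietins through TEK. Lymphatic endothelium is set apart from blood endothelium by the transcription factor PROX1 and is known for the hyaluronan receptor LYVE1, although LYVE1 is also made by some tissue macrophages.

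All 8 periodontal ligament genes looked at were well above background on every array. So were 15504 of the 22911 named genes, so that count does not identify the tissue. Postn, the periostin gene, stood at 8.50 and 8.45 in Mkx-KO and WT at 10 weeks, and at 8.62 and 8.57 in Mkx-KO and WT at 4 weeks. Every level given here is the log2 of a probe's processed signal after subtraction of its array's 75th percentile. Mkx itself was at 23.3% of WT in Mkx-KO at 10 weeks and at 31.8% of WT at 4 weeks. The scanner software called between 61.8% and 66.6% of the spots of an array well above background, and no spot was saturated. The Mkx-KO array of 4 weeks stood apart in transcripts of neighbouring tissues. Its summed signal over 8 nasal and olfactory genes, in units of the 75th percentile, was 1.82, against 124 in WT at 4 weeks, while Mkx-KO and WT at 10 weeks had 626 and 391. Its summed signal over 8 skeletal muscle genes was 26.9, against 68.2 in WT at 4 weeks, with 106 and 78.0 in Mkx-KO and WT at 10 weeks. Genes of inhibitory nerve cells were also uneven. Gad1 stood at -0.79 and -3.45 in Mkx-KO and WT at 10 weeks, and at -4.00 and -0.14 in Mkx-KO and WT at 4 weeks. The 10-week arrays were uneven too. All 7 oral epithelium genes were lower in Mkx-KO at 10 weeks, with a median of -0.83 and a summed signal of 271 against 486 in WT. All 8 blood-forming cell genes and all 8 skeletal muscle genes were higher there, with medians of 0.65 and 0.44. At 4 weeks these 3 lists had medians of 0.74, -0.22 and -1.26, Mkx-KO minus WT. The part of such neighbouring tissue in the vessel gene values was not tested. In tissue RNA, fewer cells of a type and less RNA per cell cannot be told apart.

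All 10 endothelial genes were well above background on every array, and 9 of the 10 varied by less than 2-fold over the 4 arrays. Lyve1 was the exception, with a range of 2.34-fold. The median range over the 10 genes was 0.44 log2 units, against 0.51 over the 15504 genes well above background on every array, of which 82.8% varied by less than 2-fold. The technical error of a difference between 2 arrays, as the scanner software estimates it for each spot, was 0.20 to 0.21 log2 units for 8 of these genes, up to 0.23 for Lyve1 and up to 0.38 for Prox1. It does not cover variation between mice.

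**Figure D1:**
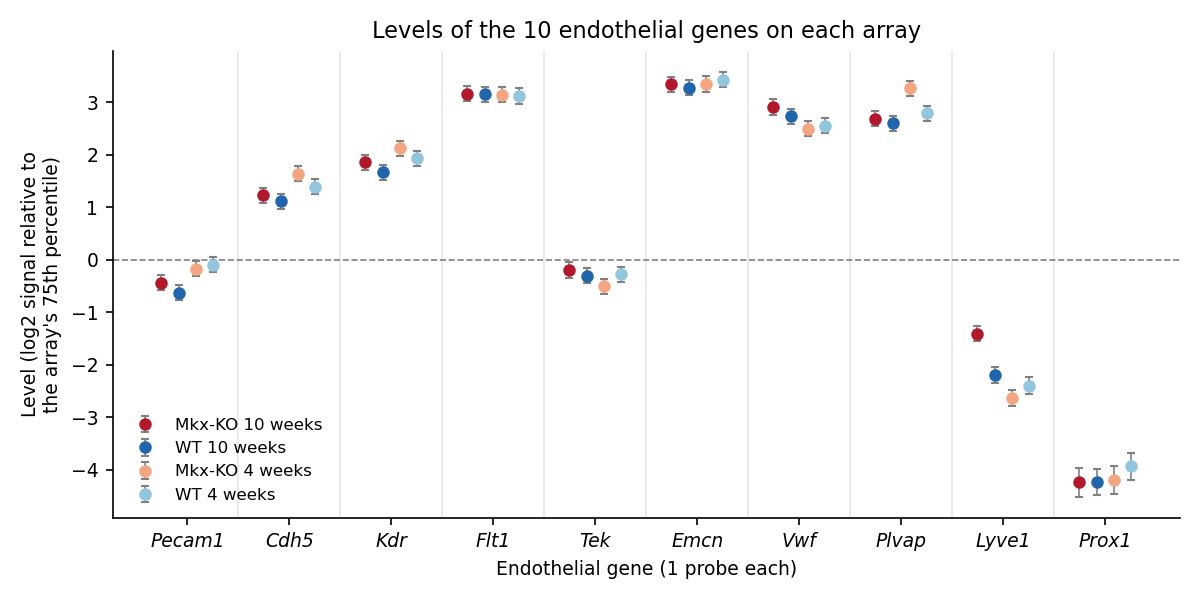
Levels of the 10 endothelial genes on the 4 arrays (y axis, log2 signal relative to the array's 75th percentile; bars, technical error of the scanner software; 1 array per group, so there is no spread between mice). The 4 points of Flt1 lie between 3.12 and 3.17, while those of Lyve1 run between -2.63 and -1.41, with Mkx-KO at 10 weeks highest; levels of different genes come from different probes and cannot be ranked.

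Pecam1, which encodes an adhesion molecule of endothelial junctions that is also found on platelets and leukocytes, had levels of -0.44 and -0.63 in Mkx-KO and WT at 10 weeks. At 4 weeks it had -0.17 in Mkx-KO and -0.10 in WT. Both arrays of 10 weeks were thus below both of 4 weeks, and the genotypes lay within 0.19 log2 units of each other at each age. Cdh5, the gene of VE-cadherin, the cadherin of endothelial junctions, had 1.23 and 1.11 in Mkx-KO and WT at 10 weeks, and 1.64 and 1.39 in Mkx-KO and WT at 4 weeks. It too was lower on both arrays of 10 weeks, and Mkx-KO was above WT by 0.11 at 10 weeks and by 0.25 at 4 weeks.

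Emcn encodes endomucin, a sialomucin of capillary and venous endothelium that is used to mark bone vessels. Its levels were 3.35 and 3.28 in Mkx-KO and WT at 10 weeks, and 3.35 and 3.43 in Mkx-KO and WT at 4 weeks. No pair of arrays differed by more than 0.16 log2 units, less than 1 technical error. The bases before its annotated start are shown because Emcn was among the steadiest of the 10 genes and because endothelial genes are known targets of ETS factors, whose binding core is GGAA. They are chr3:137340828-137341061 on GRCm38.p6, plus strand, from RefSeq, with each GGAA or its reverse complement TTCC in capitals.

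Emcn: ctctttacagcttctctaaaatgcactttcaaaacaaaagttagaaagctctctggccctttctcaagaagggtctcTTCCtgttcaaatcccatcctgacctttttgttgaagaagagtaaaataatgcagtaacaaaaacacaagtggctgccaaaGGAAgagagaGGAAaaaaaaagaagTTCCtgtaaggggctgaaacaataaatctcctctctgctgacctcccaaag

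This stretch of 234 bases held 4 such cores, and 28.7% of 32851 mouse promoter windows cut to the same length held at least 4, so the count is common. The arrays do not measure binding there. The ETS factor genes of the endothelial lineage, Erg and Fli1, named here after their values were seen, had differences of 0.49 and 0.29 at 10 weeks, Mkx-KO minus WT. At 4 weeks these were -0.39 and -0.12.

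Kdr and Flt1 encode the VEGF receptors; KDR carries most of the growth signal, and FLT1 binds VEGF tightly and limits it. Kdr had levels of 1.86 and 1.66 in Mkx-KO and WT at 10 weeks, and 2.12 and 1.93 in Mkx-KO and WT at 4 weeks. Mkx-KO was above WT by 0.19 at both ages, and both arrays of 10 weeks were below both of 4 weeks. Flt1 had 3.17 and 3.15 in Mkx-KO and WT at 10 weeks, and 3.14 and 3.12 in Mkx-KO and WT at 4 weeks. With a range of 0.05 log2 units it was the steadiest of the 10 genes, and 0.226% of all genes on every array had a smaller range. Tek, the gene of the angiopoietin receptor TIE2, had -0.19 and -0.30 in Mkx-KO and WT at 10 weeks, and -0.51 and -0.28 in Mkx-KO and WT at 4 weeks. The Mkx-KO array was the highest of the 4 at 10 weeks and the lowest at 4 weeks, over a range of 0.31.

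Vwf encodes von Willebrand factor, the clotting protein that endothelial cells and megakaryocytes store. It had levels of 2.91 and 2.73 in Mkx-KO and WT at 10 weeks, and 2.50 and 2.55 in Mkx-KO and WT at 4 weeks, so both arrays of 10 weeks were above both of 4 weeks. Of the platelet and megakaryocyte genes set beside it, all 8 were well above background on every array, and their summed signal was 50.8 and 45.7 in Mkx-KO and WT at 10 weeks, against 24.8 and 31.2 in Mkx-KO and WT at 4 weeks. Their median difference for age was 1.28 in Mkx-KO but -0.42 in WT. In WT 6 of the 8 were lower at 10 weeks and 2 higher. Ppbp, the highest of the list in WT at 10 weeks, stood at 4.83 there against 3.04 in WT at 4 weeks, and weighs on the sum. The part of platelet and megakaryocyte genes in the Vwf values was not tested. Plvap, whose product forms the diaphragms of fenestrated capillaries, had 2.68 and 2.60 in Mkx-KO and WT at 10 weeks, and 3.27 and 2.79 in Mkx-KO and WT at 4 weeks. The Mkx-KO array of 4 weeks alone stood high for Plvap, above the other 3 arrays by at least 0.47.

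Lyve1 was read at processed signals of 97.7 and 67.5 in Mkx-KO and WT at 10 weeks, and at 46.2 and 50.5 in Mkx-KO and WT at 4 weeks. The scaled levels were -1.41 and -2.19 at 10 weeks, and -2.63 and -2.40 at 4 weeks, in the same order of genotypes. The Mkx-KO array of 10 weeks was the highest and that of 4 weeks the lowest, and the WT arrays lay between them. Prox1, the gene of the transcription factor that sets lymphatic identity, was close to the limit of the arrays, with processed signals of 13.7 and 16.4 in Mkx-KO and WT at 10 weeks, and of 15.6 and 17.4 in Mkx-KO and WT at 4 weeks. The lowest signals that the software called well above background on these arrays were 10.03 to 11.54. The levels of Prox1 spanned 0.30 log2 units, within 1 technical error of a difference, so a change of that size was not detectable in this gene. The bases before the annotated start of Prox1 are shown for comparison with Emcn, since a lymphatic regulator is set beside a gene of blood endothelium. They are chr1:190170828-190171077 on GRCm38.p6, minus strand, from RefSeq, with capitals as for Emcn.

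Prox1: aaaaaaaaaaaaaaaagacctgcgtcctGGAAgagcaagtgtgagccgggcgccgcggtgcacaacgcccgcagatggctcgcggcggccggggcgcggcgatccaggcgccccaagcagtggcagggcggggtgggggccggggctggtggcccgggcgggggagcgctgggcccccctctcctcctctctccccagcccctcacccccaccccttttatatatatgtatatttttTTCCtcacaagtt

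This stretch of 250 bases held 2 such cores, and 76.8% of promoter windows of the same length held at least 2.

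The first question was whether vessel transcripts of the adult ligament, at 10 weeks, differ between Mkx-KO and WT. Of the 10 endothelial genes 0 were at least 2-fold apart, against 396 of the 16457 genes (2.41%) that both arrays measured. The median difference of the 10 genes, Mkx-KO minus WT, was 0.11, against 0.01 over all genes. Of the 10, 9 were positive and Prox1 was at -0.00; with the deposited scaling or quantile normalization 8 were positive. Apart from Lyve1 none differed by more than 0.19, which is less than 1 technical error. Lyve1 was higher in Mkx-KO by 0.78 (1.72-fold, technical error 0.21), and 2.16% of all genes were at least as much higher. At a threshold of 1.5-fold Lyve1 alone of the 10 was apart, where 8.92% of all genes were. With normexp background correction Lyve1 gave 0.50, which is under that threshold.

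At 4 weeks the same comparison concerned the young tissue. Again 0 of 10 endothelial genes were at least 2-fold apart, against 593 of 15686 genes (3.78%). The median difference was -0.07, against 0.06 over all genes, with 4 genes positive and 6 negative. Plvap was the farthest, higher in Mkx-KO by 0.47 (1.39-fold, technical error 0.20), and 5.18% of all genes were at least as much higher. Lyve1 was lower by 0.23 and Prox1 by 0.26, both close to or within 1 technical error. The genotype difference of Lyve1 thus had opposite signs at the 2 ages, and the value at 10 weeks less that at 4 weeks was 1.02 (technical error 0.31). Of all genes on every array, 7.5% had a difference between ages at least as large. Among the other 9 genes this quantity lay between -0.39 for Plvap and 0.34 for Tek.

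**Figure D2:**
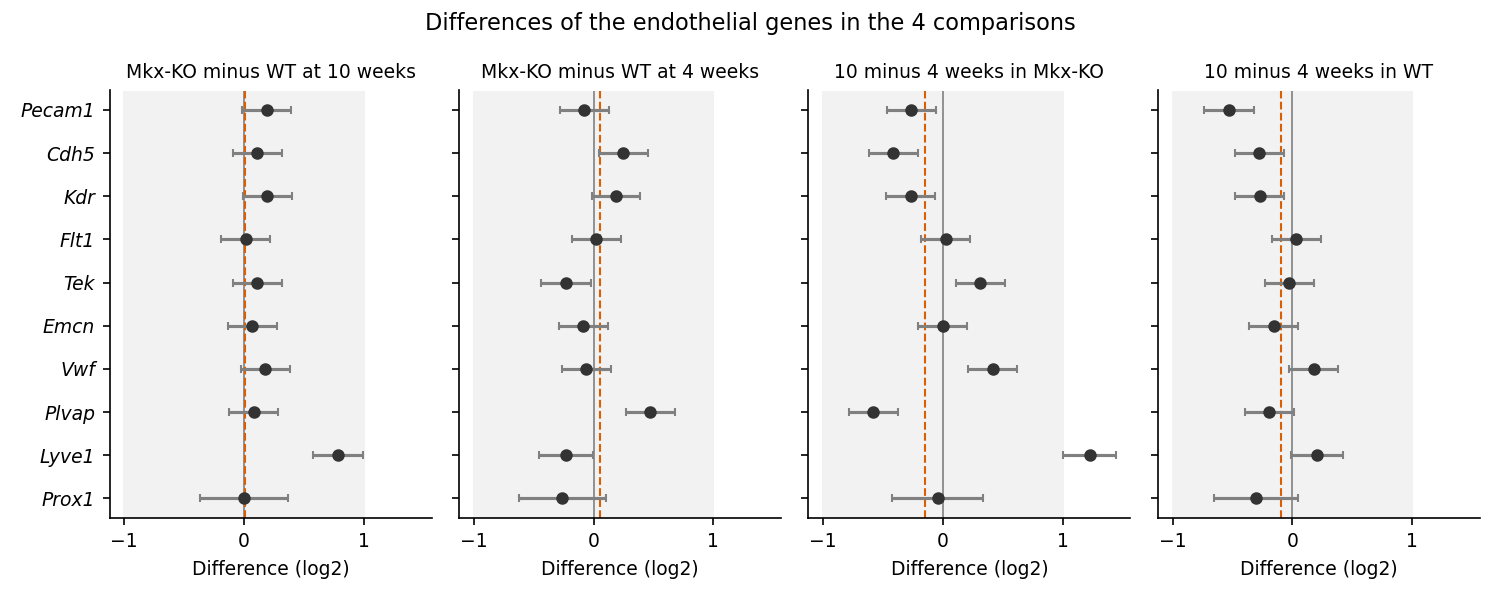
Differences (x axis, log2) of the 10 endothelial genes in the 4 comparisons, 1 panel each, with bars for the technical error; the grey band spans 2-fold in either direction and the dashed line is the median of all genes. Lyve1 lies outside the band in Mkx-KO at 10 against 4 weeks, with 1.22, and the other points lie inside it.

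The age comparisons asked how vessel transcripts of the ligament differ between 10 and 4 weeks, within each genotype. In Mkx-KO, Lyve1 was higher at 10 weeks by 1.22 (2.34-fold, technical error 0.22). It was the only 1 of the 10 genes at least 2-fold apart, where 1581 of 15669 genes (10.1%) were, so 1 of 10 is close to the share of the background; 6.25% were at least 2-fold higher. Plvap was lower at 10 weeks by 0.58, Cdh5 lower by 0.41 and Vwf higher by 0.41, each past 2 technical errors. The median was -0.02, against -0.15 over all genes. The 2-fold call of Lyve1 ended with quantile normalization, at 0.99, and with normexp background correction, at 0.70. This comparison rests on the Mkx-KO array of 4 weeks, the one that stood apart in nasal and muscle transcripts.

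In WT none of the 10 was at least 2-fold apart between 10 and 4 weeks, against 1423 of 16102 genes (8.84%). Pecam1 was the farthest, lower at 10 weeks by 0.53 and the only gene of the 10 past 2 technical errors. Cdh5 and Kdr were lower by 0.28 and 0.27. Lyve1 was higher by 0.21, less than 1 technical error. The median was -0.17, against -0.10 over all genes. The direction of such small differences rests on the scaling. With the authors' deposited scaling, the median of all genes moves by 0.29 in Mkx-KO and by 0.36 in WT, and the differences of Cdh5 and Kdr in WT become 0.08 each. Pecam1 in WT stays negative at -0.17, and Plvap in Mkx-KO at -0.29. Relative to the median of all genes, Flt1, Tek, Vwf and Lyve1 were on the higher side and Pecam1, Cdh5, Kdr and Plvap on the lower side at 10 weeks in both genotypes, while Emcn and Prox1 differed in side between them.

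A fit over all 4 arrays with genotype and age as terms gave no endothelial gene past the threshold. limma called 0 of 16795 genes (0%) for genotype and 0 (0%) for age after Benjamini-Hochberg adjustment. At an unadjusted p under 0.05 it had 455 genes for genotype (2.71%) and 4074 for age (24.3%), with none of the 10 endothelial genes in either; for age this became 2 genes with the deposited scaling and 1 with quantile normalization, without genotype in the fit or with a trended variance. The smallest p among them for genotype was that of Plvap, higher in Mkx-KO by 0.28 ± 0.17 (SE) with an adjusted limma p of 0.9995. For age it was that of Pecam1, lower at 10 weeks with a difference of -0.40 ± 0.15 (SE) and an adjusted limma p of 0.239. Mkx itself, at -1.88 ± 0.18 (SE), also had an adjusted limma p of 0.9995, from a fit with 1 residual degree of freedom. With 1 array per group, the error of this fit comes from the departure of the 4 arrays from additive effects of genotype and age. A genotype difference with unlike values at the 2 ages, as Lyve1 had, thus counts as error. Such values cannot be told apart here from variation between preparations. The p-values do not measure the spread between mice or between preparations of a group.

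Genes of the same vessels that are not among the 10 were described by lists. Of 26 other pan-endothelial genes, such as the receptor gene Tie1 and the secreted factor gene Egfl7, all were well above background on every array. Between Mkx-KO and WT 0 of the 26 were at least 2-fold apart at either age, where the shares over all genes were 2.41% at 10 weeks and 3.78% at 4 weeks, so counts of 0 in lists of this size are near the background. Their median genotype difference was 0.14 at 10 weeks, with 22 positive and 4 negative where 8468 of 16457 genes were positive, and 0.07 at 4 weeks, with 15 positive and 11 negative. Tal1, a transcription factor gene of blood and endothelial precursors that marrow cells also express, was the only 1 of the 26 that was 2-fold apart for age, against 10.1% of all genes in Mkx-KO and 8.84% in WT. It was higher at 10 weeks by 1.35 in Mkx-KO and by 0.85 in WT. The median for age was -0.16 in Mkx-KO and -0.27 in WT, where all genes had -0.15 and -0.10.

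Ligands that act on endothelial cells formed another list. Of 12 ligand and co-receptor genes, 0 were at least 2-fold apart between Mkx-KO and WT at either age, again near the background of 2.41% and 3.78%. At 10 against 4 weeks in Mkx-KO 3 of the 12 were at least 2-fold lower, where 3.84% of all genes were. Angpt4, an angiopoietin gene, had levels of -1.62 at 10 weeks and 0.32 at 4 weeks in Mkx-KO, and of -1.05 and -0.40 in WT. Apln, the gene of the peptide apelin from sprouting endothelial tips, had -2.15 and -0.76 in Mkx-KO and -1.83 and -0.91 in WT. Its receptor gene Aplnr had -1.23 and 0.21 in Mkx-KO and -0.88 and -0.03 in WT. These 3 genes were lower at 10 weeks in both genotypes, by 1.39 to 1.94 in Mkx-KO and by 0.65 to 0.92 in WT. Vegfd, a ligand gene of lymphatic growth, was higher at 10 weeks by 0.73 in Mkx-KO and by 1.36 in WT, and its second probe gave 1.82 and 0.87.

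**Figure D3:**
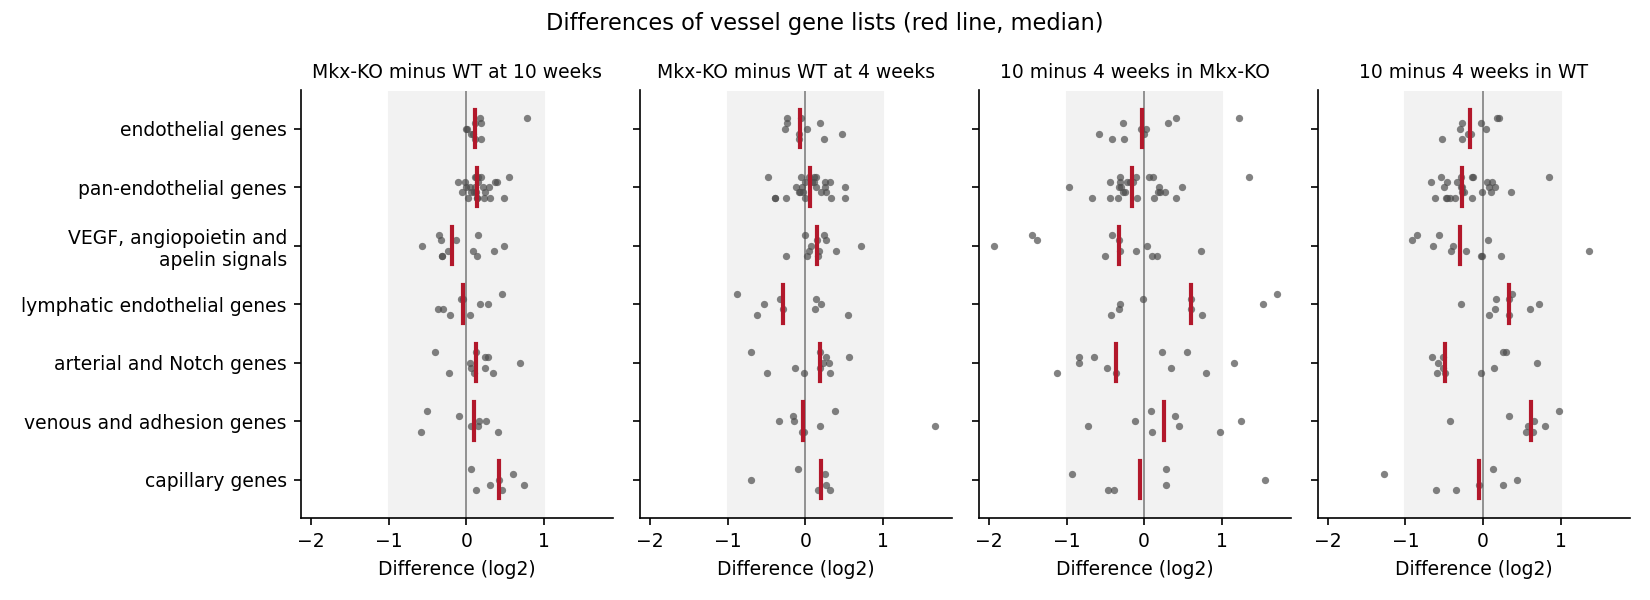
Differences (x axis, log2) of the genes of 7 vessel lists in the 4 comparisons; each point is a gene well above background on both arrays, the red line is the list's median and the grey band spans 2-fold. Pan-endothelial genes gather near 0 in the genotype panels, with medians of 0.14 and 0.07. The medians of the lymphatic and venous lists lie to the right of 0 in the age panels. In Mkx-KO the lymphatic list is split, with 5 genes positive and 4 negative for age.

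Arterial, venous and capillary genes varied within each list. Among 11 of 12 arterial and Notch genes that were measured, 0 were 2-fold apart by genotype, where 2.41% of all genes were at 10 weeks and 3.78% at 4 weeks. That count rests on the brightest probe of each gene. For Notch4, named after its values were seen, that probe gave 0.24 at 10 weeks and 0.57 at 4 weeks. The second probe of Notch4 gave 1.15 and 1.60. The median of the 11 genes for age was -0.36 in Mkx-KO and -0.49 in WT, below the -0.15 and -0.10 of all genes. The list was split, with 5 positive and 6 negative in Mkx-KO, and 4 positive and 7 negative in WT. Notch1 was the farthest of the positive genes, higher at 10 weeks by 1.15 in Mkx-KO and by 0.69 in WT. Unc5b, a netrin receptor gene of arteries and sprouting tips, was lower by 1.13 in Mkx-KO and by 0.59 in WT. Ephb4, which encodes the ephrin receptor of veins, was the only 1 of 8 venous and adhesion genes apart by genotype, against 3.78% of all genes at 4 weeks. It was higher in Mkx-KO at 4 weeks by 1.67, but its second probe gave 0.72. Vcam1, a leukocyte adhesion gene, was higher at 10 weeks by 1.25 in Mkx-KO and by 0.66 in WT. All 7 capillary genes measured at 10 weeks were positive for genotype, with a median of 0.42, where 8468 of 16457 genes were positive. The list has 8 genes, and Car4, at -0.40, was left out because it was not well above background in Mkx-KO. At 4 weeks 4 were positive and 2 negative, with a median of 0.21 and with Fabp4 at -0.70. The same filter left out Car4, at -0.70, and Tcf15, at -1.22, there. Car4 and Tcf15 are named after their values were seen. At 10 weeks Gpihbp1, the capillary anchor of lipoprotein lipase, was higher in Mkx-KO by 0.61. For age, Gpihbp1 was lower at 10 weeks by 0.93 in Mkx-KO and by 1.28 in WT. Fabp4, a fatty acid carrier gene of capillaries that fat cells also express, was higher at 10 weeks by 1.55 in Mkx-KO and by 0.43 in WT. Adipoq, an adipocyte marker, was higher by 3.46 and by 0.50 in the same comparisons, and its part in the Fabp4 values was not tested.

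Lyve1 was set beside genes of both cell types that are known to make it. Of 10 other lymphatic genes, 9 were well above background on both arrays of each pair, and Flt4, the VEGF receptor gene of lymphatics, was so on 2 of 4 arrays. The median of the 9 was -0.04 and -0.29 for genotype at 10 and at 4 weeks, and 0.60 and 0.33 for age in Mkx-KO and in WT. For age in Mkx-KO 5 of the 9 were positive and 4 negative, where 5900 of 15669 genes were positive. In WT 8 were positive and 1 negative, where 6518 of 16102 genes were positive. Mmrn1, the multimerin gene of lymphatic endothelium and platelets, had levels of 1.13 and 0.68 in Mkx-KO and WT at 10 weeks, and -0.57 and 0.30 in Mkx-KO and WT at 4 weeks. Stab2, a hyaluronan receptor gene of sinusoidal and lymphatic endothelium, had -1.61 and -1.88 at 10 weeks, and -3.13 and -2.60 at 4 weeks, in the same order, but its second probe gave 0.11 for age in Mkx-KO against 1.53 for the brighter one. Both genes shared the full array order of Lyve1. The Mkx-KO arrays were highest at 10 weeks and lowest at 4 weeks. Between these, the older WT array stood above the younger one. That order is not particular to lymphatic genes. Among genes well above background on every array it was held by 2 of 9 lymphatic genes, 3 of 10 macrophage markers, 3 of 8 blood-forming cell genes, 6 of 8 skeletal muscle genes and 4 of 5 adipocyte genes, and by 6.91% of all genes. Of the 10 endothelial genes 2 held it, Lyve1 itself and Vwf, and of the 26 other pan-endothelial genes 2 did. No gene of the ligand, nerve cell, oral epithelium or periodontal ligament lists held this order. Mpo, a myeloid gene of marrow, had 4.99 and 4.13 in Mkx-KO and WT at 10 weeks, and 2.42 and 3.54 in Mkx-KO and WT at 4 weeks. Ccl21a, a lymphatic chemokine gene named after its values were seen, did not: it had 3.65 and 3.85 in Mkx-KO and WT at 10 weeks, and 2.90 and 3.52 in Mkx-KO and WT at 4 weeks.

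All 10 macrophage markers were well above background on every array, and their summed signal was 77.4 and 60.1 in Mkx-KO and WT at 10 weeks, against 101 and 95.6 in Mkx-KO and WT at 4 weeks. The sum was thus lower at 10 weeks, where Lyve1 was higher. Such a sum is weighted toward genes of high signal, here Csf1r, named after its values were seen and the highest of the list on every array. Its brighter probe gave -0.58 for age in Mkx-KO and -0.87 in WT, but its second probe gave 0.07 and -0.09. The median difference of the 10 markers for age was -0.11 in Mkx-KO and -0.35 in WT. That was below the median of all genes in WT and slightly above it in Mkx-KO. In Mkx-KO 3 of the 10 were positive for age: Cd163 at 1.13, Adgre1 at 0.55 and the mannose receptor gene Mrc1 at 0.46, the last 2 named after their values were seen. Cd163, a scavenger receptor gene of resident macrophages, had 0.51 and -0.30 in Mkx-KO and WT at 10 weeks, and -0.62 and -0.58 in Mkx-KO and WT at 4 weeks. Its differences of 0.81 for genotype at 10 weeks and 1.13 for age in Mkx-KO were close to those of Lyve1, 0.78 and 1.22, and its second probe gave 1.67 and 2.20. That second probe of Cd163 also gave -1.02 for genotype at 4 weeks and -0.48 for age in WT, against -0.05 and 0.27 for the brighter one. For genotype at 10 weeks, the median of the 10 markers was 0.22, with 9 positive and 1 negative, where 8468 of 16457 genes were positive. At 4 weeks it was -0.05, with 4 positive and 6 negative. Adgre1 and Mrc1 were among the smaller of the positive values at 10 weeks, with 0.02 and 0.14, and Cd68 gave 0.60. The second probe of Adgre1 gave -0.70 for genotype at 10 weeks and 0.18 for age in Mkx-KO. The part of macrophages, lymphatic vessels and neighbouring tissue in the Lyve1 values was not tested.

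**Figure D4:**
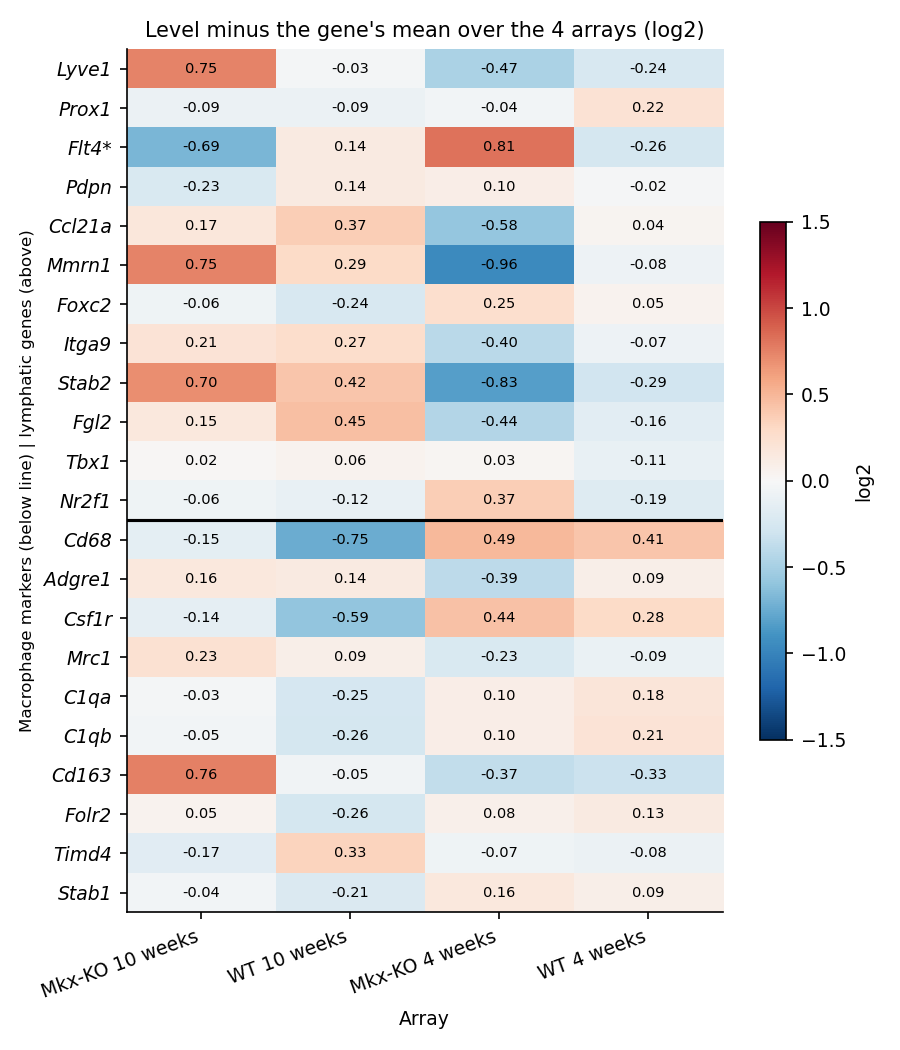
Level of each lymphatic gene (above the line) and macrophage marker (below it) on each array, less the mean of that gene over the 4 arrays (log2; colour and number). Lyve1, Mmrn1, Stab2 and Cd163 are all highest in Mkx-KO at 10 weeks, between 0.70 and 0.76, and the other genes are not as high there; the asterisk marks Flt4, which was not well above background on 2 arrays.

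The genes most like Lyve1 over the 4 arrays, by Euclidean distance between levels centred per gene and among 15494 other genes, were Rbm38, Lman1l, Zscan10, Traf3ip3 and Clec3b, at distances of 0.0855 to 0.121 log2 units. For the median profile of the 10 endothelial genes they were Maml2, Acvr1, Zkscan17, Pms2 and Sumf1, at distances of 0.0329 to 0.0366. That profile is almost flat, between -0.08 in WT at 10 weeks and 0.04 in WT at 4 weeks, so many genes of little change lie near it.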

How the data were processed

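Gene expression was measured on 4 one-colour arrays, and per the file headers the deposited scan data hold spot intensity from Agilent Feature Extraction 11.5.1.1 with an mm9 array design. The processed signal is background-subtracted by that software. The authors' deposited series table holds intensity on a linear scale that is the processed signal multiplied by a constant for each array, 2.08 and 1.81 for Mkx-KO and WT at 10 weeks and 1.54 and 1.64 at 4 weeks; how the factors were chosen is not given in the sources used here. Probes were named by unversioned RefSeq accession through a RefSeq table of GRCm38.p6: 32994 of 56605 probes (58.3%) matched a gene. Gene positions on mm9 were not used here.

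Signals were log2 transformed, spots of a probe averaged without outliers, and the 75th percentile over probes subtracted. A gene was measured in a pair where the software called it well above background on both arrays, and called where at least 2-fold apart. With 1 array per group, no pair has a p-value. A linear model of genotype and age was fitted with limma 3.58.1 (R 4.3.3) over genes above background on at least 2 arrays, with a threshold of 0.05, and was tested on simulated data. The members, the 16 other lists and the rule for named genes (the 10 genes, Mkx, at most 4 called genes per list by mean absolute difference or otherwise the top 2, and the 5 nearest profiles) were chosen with earlier results of these data known; genes such as Postn, Tie1 and Egfl7 are named outside that rule as list examples. The alternatives were other scalings, normexp with an offset of 50 on median signals, the mean over probes, other filters, thresholds of 1.5-fold and 3-fold, and other forms of the fit. The number of arrays limits the precision. Tables were computed with pandas 2.3.3 and numpy 2.4.6 under Python 3.11.15, and plots with matplotlib 3.10.9.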

Additional observations from a re-analysis of the deposited data

Results flagged for a closer look

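Lyve1, the hyaluronan receptor gene, had genotype differences of opposite sign at the 2 ages, 0.78 at 10 weeks and -0.23 at 4 weeks, Mkx-KO minus WT, which differ by 1.02 log2 units. With normexp background correction the values at 10 and 4 weeks were 0.50 and -0.17, and with quantile normalization 0.79 and -0.10. Each rests on 1 array per group, and the difference between ages was not tested.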

How the results depend on the processing

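For genotype, the median difference of the 10 endothelial genes stayed within a set margin under the 8 alternatives. That margin was the median technical error of a difference divided by the square root of the number of genes. It takes the errors of the genes as independent. The count of genes apart at 10 weeks became 1, Lyve1, at 1.5-fold. For age in Mkx-KO, the median was 0.27 with the deposited scaling and 0.075 with quantile normalization, and 0.03 after subtracting local brightness, each opposite in sign to the -0.02 reported. The count of genes at least 2-fold apart there, 1, was 0 with quantile normalization, 0 with normexp and 0 at 3-fold. For age in WT, the median was 0.18 with the deposited scaling, -0.044 with quantile normalization and -0.10 after subtracting local brightness, the last an alternative chosen after seeing the data. Around the 10 spots that brightness departed from the mean of the arrays by at most 0.12. Each endothelial gene had 1 probe, so averaging probes changed none of their 40 differences. limma called 0 endothelial genes under each form run, with 0 to 2 at an unadjusted p under 0.05 for age, while over all genes its count for age, 0, became 31 with normexp and 5 without genotype in the fit. No paired analysis was possible because the labels give no replicate numbers, and leaving out an array leaves no residual degree of freedom. The low signal of Prox1, and to a lesser degree of Lyve1, limits what could be detected. The causes of these changes were not tested, beyond the shift that the deposited scaling gives all genes.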

Other observations

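Mural cell markers, the genes of the pericytes and smooth muscle cells that wrap vessels, were all 10 well above background on every array. Their median genotype difference was -0.08 at 10 weeks and 0.16 at 4 weeks. Acta2, the smooth muscle actin gene, was higher in Mkx-KO at 4 weeks by 1.63, but its 3 probes gave 0.32 to 1.63. Cnn1, the calponin gene, had age differences of -1.11 in Mkx-KO and -0.93 in WT, but its second probe gave -0.26 and -0.04.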
